A study of Mus musculus with 9 samples.

Results

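The 8 genes Ugt2b5, Ugt2b34, Ugt2b35, Ugt2b36, Ugt2b37, Ugt2b38, Ugt3a1 and Ugt3a2 were taken by gene symbol from the 21950 protein-coding genes measured in mouse renal cortex, as the members of the Ugt2b and Ugt3a families listed for this comparison. Levels are FPKM, that is, fragments scaled to transcript length and to the mapped fragments of the library, summed over the transcripts of each gene. Of the 8 genes, 6 passed the minimum mean of 0.1 FPKM over all libraries, as did 14537 genes in all. The study compared 3 groups of 3 male mice, with 1 rRNA-depleted, strand-specific RNA-seq library of the whole renal cortex per mouse. Control mice were non-diabetic db/m littermates, heterozygous for the leptin receptor mutation db, and dbdb mice were db/db, that is, homozygous for it, which leads to obesity and type 2 diabetes. The dbR mice were db/db mice given rosiglitazone, an insulin sensitiser that activates the nuclear receptor PPARγ, at 20 mg/kg per day for 8 weeks, from 7 to 15 weeks of age. The dbdb mice received the vehicle by gavage over the same weeks, and for the control mice no treatment was given in the sources used here. All mice were 15 weeks old and of the C57BL/KsJ background. Female mice and db/m mice given rosiglitazone were not part of the groups.

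UDP-glycosyltransferases (UGTs) are membrane enzymes of the endoplasmic reticulum that couple a sugar to small lipophilic molecules, which makes them water soluble and ready for export into urine or bile. Enzymes of the UGT2B family transfer glucuronic acid from UDP-glucuronic acid and are known for the conjugation of steroids, androgens among them, bile acids, fatty acids and drugs. Enzymes of the UGT3A family use other sugar donors, UDP-N-acetylglucosamine, UDP-glucose or UDP-xylose, and are expressed in kidney and liver.

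The libraries held an estimated 24.8 M to 30.5 M fragments, from the step between low FPKM values, and mitochondrial transcripts took 26.9% to 32.8% of the summed mRNA FPKM. The tissue label was checked against markers. The summed FPKM of 12 proximal tubule markers, the segment that makes up most of the cortex, was between 4734 and 6808 in each library. Of 8 hepatocyte markers, Cps1 was at 0 in all 9 libraries and the summed level of the list was between 52.8 and 86.2 FPKM.

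The 6 Ugt2b genes lay in a cluster on chromosome 5 (GRCm38), from the first base of Ugt2b34 at 86889767 to the last base of Ugt2b38 at 87424203, in the order Ugt2b34, Ugt2b35, Ugt2b36, Ugt2b5, Ugt2b37 and Ugt2b38. All were annotated on the minus strand except Ugt2b35, and each had 6 exons. Ugt3a1 (9276888 to 9315032) and Ugt3a2 (9335550 to 9370955) lay next to each other on the plus strand of chromosome 15, with 7 exons each. The coding sequences of Ugt2b5 and Ugt2b38 were 97.0% identical, those of Ugt2b37 and Ugt2b38 94.1%, and those of Ugt3a1 and Ugt3a2 93.2%. Ugt2b34 stood apart from the other Ugt2b genes, with 71.3% to 72.4% identity to each of them. Between the Ugt2b and the Ugt3a families the identity was 53.7% to 57.2%.

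This likeness bears on how far the levels belong to single genes. Of all windows of 150 bases, the read length, in the Ugt2b5 transcript, 19.5% were also found letter for letter in Ugt2b38, and no such window of Ugt2b37, Ugt2b34, Ugt3a1 or Ugt3a2 was found in another gene. Because Ugt2b38 was far more abundant than Ugt2b5, reads of both can be divided between them by the authors' assembly software, and the level of Ugt2b5 is uncertain. Of the windows of 50 bases, 37.4% of those of Ugt2b38, 18.3% of those of Ugt2b37 and 9.39% of those of Ugt3a2 had an exact copy in another gene.

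RefSeq promoters of the same build family (GRCm38.p6, from 250 bases before to 50 bases after the annotated start) were found for 7 of the 8 genes. Those shown, the 140 bases before the RefSeq start, are the promoters of the 2 Ugt2b genes that fell most, of the near-identical Ugt2b5, of Ugt2b36, which was not detected, and of Ugt2b34, which moved the other way. Positions are counted from the RefSeq start. In the GENCODE annotation used for gene positions, Ugt2b37 starts at 87254804, inside the stretch shown, and Ugt2b5 at 87140318. Capitals mark AGGTCA on either strand, the core element known for nuclear receptors.
Ugt2b38, chr5:87424204-87424343, minus strand: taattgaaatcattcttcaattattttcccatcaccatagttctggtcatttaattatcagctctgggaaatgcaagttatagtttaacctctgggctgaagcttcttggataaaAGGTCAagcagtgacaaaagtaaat
Ugt2b37, chr5:87254789-87254928, minus strand: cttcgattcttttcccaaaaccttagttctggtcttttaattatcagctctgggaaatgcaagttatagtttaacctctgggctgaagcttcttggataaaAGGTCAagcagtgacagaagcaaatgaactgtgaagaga
Ugt2b5, chr5:87140341-87140480, minus strand: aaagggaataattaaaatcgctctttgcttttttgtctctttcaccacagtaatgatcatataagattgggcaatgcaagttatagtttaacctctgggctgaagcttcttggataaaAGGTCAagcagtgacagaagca
Ugt2b36, chr5:87092556-87092695, minus strand: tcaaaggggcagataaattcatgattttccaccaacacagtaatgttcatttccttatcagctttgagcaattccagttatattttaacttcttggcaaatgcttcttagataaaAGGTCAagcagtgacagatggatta
Ugt2b34, chr5:86906938-86907077, minus strand: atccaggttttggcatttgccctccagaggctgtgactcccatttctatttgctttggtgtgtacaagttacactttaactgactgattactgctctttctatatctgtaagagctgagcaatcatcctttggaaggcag
AGGTCA was present in 5 of the 7 matched promoters, all of Ugt2b genes, beside 16.3% of the 32851 RefSeq promoters of the same length, at position -25 of Ugt2b38 and -39 of Ugt2b37. In the promoter of Ugt2b35, which is not shown, it was at -215. The steroid receptor element TGTTCT was in 2 of 7 (19.0%), and the core of the aryl hydrocarbon receptor site, GCGTG, was in 0 of 7 (32.4%). Ugt2b38, Ugt2b37 and Ugt2b5 shared a run of 62 bases that holds AGGTCA, and the 250 bases before the start were 94.9% identical between Ugt2b38 and Ugt2b37 and 86.7% between Ugt2b38 and Ugt2b5. Ugt2b38 and Ugt2b36 shared a run of 22 bases that holds AGGTCA too. The matches in these genes lie in shared sequence and are not independent of each other. A match of letters does not show that a factor binds there.

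The first comparison, dbdb vs. control, asked which genes differ between the cortex of diabetic and control mice. Both abundant Ugt2b genes and both Ugt3a genes were lower in dbdb mice, whereas Ugt2b34 was higher. The dbdb mean was 27.6% of the control mean for Ugt2b37, 28.0% for Ugt2b38, 47.4% for Ugt3a1, 56.2% for Ugt3a2 and 153% for Ugt2b34. Of the 6 genes tested, 4 were called lower, 1 was called higher and 1 was not called at an adjusted p under 0.05. Of all 14537 genes, 26.4% were called, 13.4% lower and 13.1% higher. The libraries of the 2 groups did not overlap for the same 5 genes, beside 42.4% of all genes (21.2% in each direction). When mitochondrial genes were left out and each library was scaled to the same sum, the median over all genes shifted to 0.15 on the log2 scale and the share of higher genes among those called went from 49.5% to 78.3%, and the 5 members kept their directions and calls. In this and all other comparisons of bulk tissue, fewer cells of a type and less RNA per cell cannot be told apart.

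Ugt2b38 was, with Ugt3a2, the most abundant of the 8 genes in control cortex. Its level was 939, 869 and 1141 FPKM in the control libraries, 282, 289 and 254 FPKM in the dbdb libraries, and 228, 300 and 278 FPKM in the dbR libraries. Every dbdb and every dbR library was below every control library, and the dbdb and dbR libraries overlapped. The mean fell from 983 ± 142 FPKM in control to 275 ± 18.4 FPKM in dbdb mice (SD, n = 3 each), a log2 fold change of -1.83 (SE 0.12, limma, adjusted p = 1.5e-05).

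Ugt2b37, the other abundant gene of the cluster, showed a fall of like size at lower levels. The control libraries held 239, 230 and 224 FPKM, the dbdb libraries 56.4, 65.1 and 69.8 FPKM, and the dbR libraries 45.0, 44.7 and 55.3 FPKM. The 3 groups did not overlap, with control highest and dbR lowest. The control mean of 231 ± 7.22 FPKM was 3.62 times the dbdb mean of 63.8 ± 6.83 FPKM (SD, n = 3), with a log2 fold change of -1.86 (SE 0.10, adjusted p = 7.55e-06). The ratio of Ugt2b38 to Ugt2b37 was 4.26 in control and 4.36 in dbdb mice, and the groups overlapped (exact permutation test, two-sided, p = 1). In dbR mice it was 5.60, with every library above every dbdb library (exact permutation p = 0.1, the smallest that 3 against 3 libraries allow, adjusted p = 0.225 over 9 ratio tests).

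The Ugt3a enzymes differ from the Ugt2b enzymes in the sugar donor. In dbdb vs. control both genes had smaller fold changes than Ugt2b37 and Ugt2b38. Ugt3a2 was at 862, 876 and 973 FPKM in control, 527, 523 and 473 FPKM in dbdb and 568, 634 and 667 FPKM in dbR libraries. The groups did not overlap, and dbR lay between the other two. The means were 904 ± 60.4 FPKM in control and 508 ± 30.2 FPKM in dbdb mice (SD, n = 3), a log2 fold change of -0.83 (SE 0.09, adjusted p = 0.000163). 

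Ugt3a1 had the same order of the groups at a lower level. It was at 209, 206 and 217 FPKM in control, 89.5, 103 and 107 FPKM in dbdb and 124, 133 and 152 FPKM in dbR libraries, with no overlap between any pair of groups. The control mean was 211 ± 5.81 FPKM and the log2 fold change in dbdb mice -1.08 (SE 0.09, adjusted p = 4.35e-05). The ratio of Ugt3a2 to Ugt3a1 was 4.28 ± 0.182 in control and 5.12 ± 0.740 in dbdb libraries (SD, n = 3), and the groups overlapped (exact permutation p = 0.2).

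Ugt2b34, the most divergent Ugt2b gene here and the one at the far end of the cluster, moved in the opposite direction. The control libraries held 13.2, 11.8 and 11.9 FPKM, the dbdb libraries 20.4, 20.0 and 16.1 FPKM and the dbR libraries 21.3, 25.1 and 20.5 FPKM. All dbdb and dbR libraries were above all control libraries. The mean was 12.3 ± 0.811 FPKM in control and 18.8 ± 2.37 FPKM in dbdb mice (SD, n = 3), a log2 fold change of 0.60 (SE 0.11, adjusted p = 0.00297).

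The remaining Ugt2b genes were scarce or not detected. Ugt2b5 was between 1.08 and 2.89 FPKM in the 9 libraries, or an estimated 56 to 143 fragments, and the control and dbdb groups overlapped (log2 fold change -0.16, SE 0.26, adjusted p = 0.689). Ugt2b35 was at 0.035, 0.012 and 0.011 FPKM in the dbdb libraries and at 0 in the other 6 libraries. Since 1 fragment corresponds to 0.0097 to 0.0120 FPKM for this gene, these values amount to at most 2.95 estimated fragments, and no difference can be read from them. Ugt2b36 was at 0 in all 9 libraries.

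**Figure D1:**
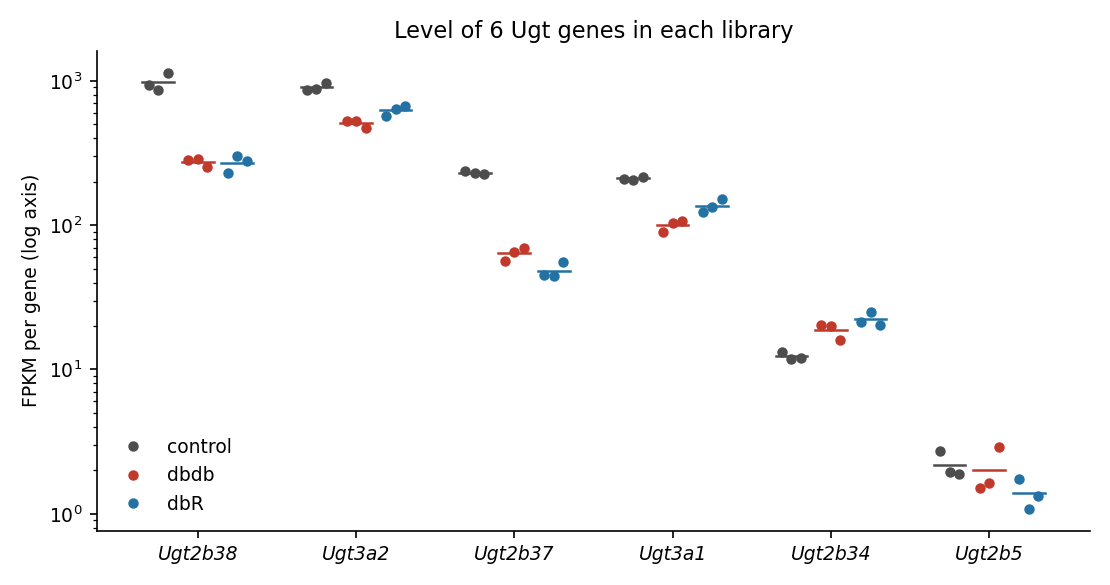
FPKM of the 6 Ugt2b and Ugt3a genes past the minimum, on a log axis, in each of 3 control, 3 dbdb and 3 dbR libraries (points, 1 per mouse), with the group mean as a line. The control libraries lay above all others for Ugt2b38, Ugt3a2, Ugt2b37 and Ugt3a1 and below all others for Ugt2b34, while Ugt2b5 stayed between 1.08 and 2.89 FPKM with overlapping control and dbdb libraries.

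Summed over the 8 genes, control libraries held 2343 ± 200 FPKM, dbdb libraries 968 ± 40.5 FPKM and dbR libraries 1100 ± 98.6 FPKM (SD, n = 3 each). The make-up of this sum changed as well. Ugt2b38 held 41.8% ± 2.43 of it in control, 28.4% ± 0.753 in dbdb and 24.4% ± 1.76 in dbR libraries (SD, n = 3), and Ugt3a2 held 38.6% ± 1.13, 52.4% ± 1.39 and 56.7% ± 0.894. The order of the levels differed accordingly. In control cortex the ranges of Ugt2b38 (869 to 1141 FPKM) and Ugt3a2 (862 to 973 FPKM) overlapped, and Ugt2b37 (224 to 239 FPKM) was above Ugt3a1 (206 to 217 FPKM). In dbdb cortex Ugt3a2 was above Ugt2b38 and Ugt3a1 was above Ugt2b37 in each library. Control libraries had a ratio of Ugt3a2 to Ugt2b38 of 0.927 ± 0.0782, dbdb libraries one of 1.85 ± 0.0327 and dbR libraries one of 2.33 ± 0.197 (SD, n = 3), with no overlap between groups. The exact permutation test gave p = 0.1 for each pair of groups, the smallest that 3 against 3 libraries allow, and an adjusted p of 0.225 over the 9 ratio tests.

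**Figure D2:**
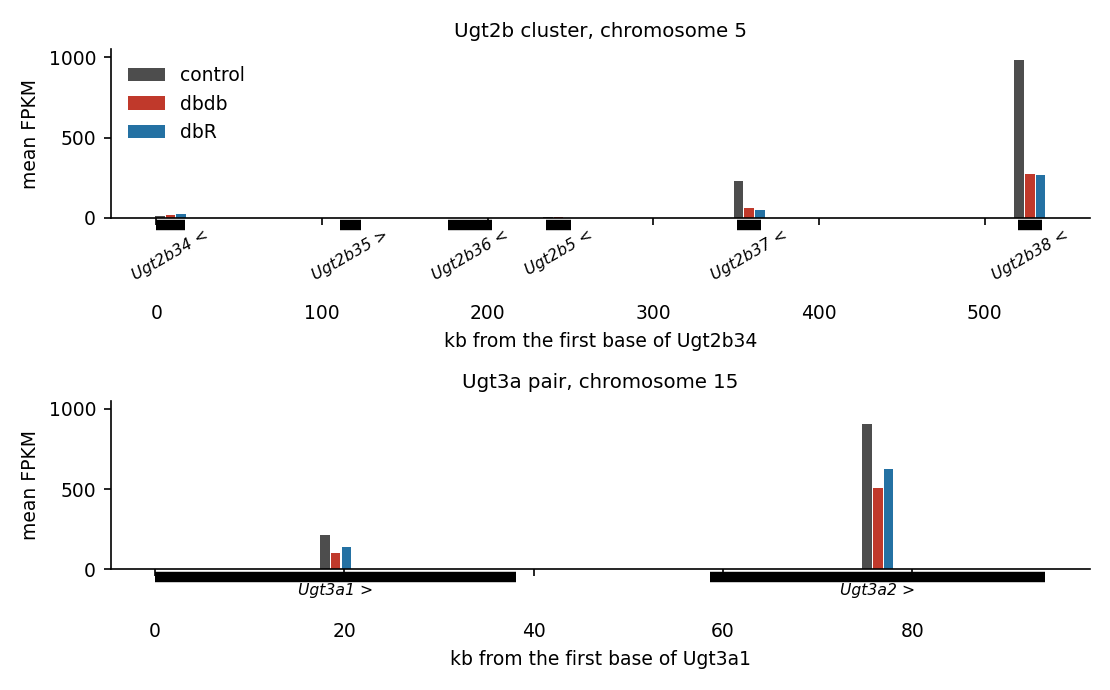
Mean FPKM (y axis) of control, dbdb and dbR libraries (bars, n = 3 each) placed at the centre of each gene, with distance in kb from the first base of Ugt2b34 on chromosome 5 (top) and of Ugt3a1 on chromosome 15 (bottom). Black boxes are gene spans, and > and < mark the plus and minus strand. The high levels in the Ugt2b cluster were at Ugt2b37 and Ugt2b38, where control means were 231 and 983 FPKM, and Ugt2b34 at the other end had a control mean of 12.3 FPKM.

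The second comparison, dbR vs. dbdb, asked what rosiglitazone changed in db/db mice. None of the 6 genes was called by limma at an adjusted p under 0.05, where 0.743% of all genes were called (0.564% higher, 0.179% lower). That background count of 108 genes fell to 2 without dbR replicate 2 and to 10 without dbR replicate 3, and 75.9% of the genes were higher, or 48.6% when scaled without mitochondrial genes. At an unadjusted p under 0.05, 3 were higher and 1 was lower, beside 9.43% and 8.05% of all genes. Without overlap between the groups, 3 were higher and 1 was lower, beside 10.7% and 11.9% of all genes.

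The Ugt3a genes had positive fold changes. Ugt3a1 had a mean of 100 ± 9.31 FPKM in dbdb and 136 ± 14.4 FPKM in dbR mice (SD, n = 3), a log2 fold change of 0.45 with a 95% confidence interval of 0.25 to 0.64 (adjusted p = 0.0519), and all dbR libraries were above all dbdb libraries. In 3 of 19 alternative fits it passed the threshold, at an adjusted p of 0.0353 with libraries scaled to the same 75th percentile. The log2 fold change of Ugt3a2, from 508 to 623 ± 50.2 FPKM, was 0.29 (0.10 to 0.49, adjusted p = 0.132), without overlap as well, and 0.12 with quantile normalization. As deposited, the dbR means of Ugt3a1 and Ugt3a2 lay 32.9% and 29.1% of the way from dbdb to control, for differences between dbR and dbdb that were not called.

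The Ugt2b genes gave other values in the same mice. Ugt2b38 was at 275 ± 18.4 FPKM in dbdb and 269 ± 37.0 FPKM in dbR mice (SD, n = 3), a log2 fold change of -0.04 with a 95% confidence interval of -0.32 to 0.23 (adjusted p = 0.896). Ugt2b37 was at 48.3 ± 6.01 FPKM in dbR mice, with a log2 fold change against dbdb of -0.40 (-0.62 to -0.18, adjusted p = 0.0834), and all dbR libraries were below all dbdb libraries. On the same measure the dbR mean was at -9.23% for Ugt2b37, away from control, and at -0.92% for Ugt2b38, whose log2 fold change turned to 0.072 without dbR replicate 1. Ugt2b34 had a log2 fold change of 0.24 (adjusted p = 0.28), which was 0.13 without dbdb replicate 3 and 0.15 without dbR replicate 2. Ugt2b5 had one of -0.47 (adjusted p = 0.377), or -0.19 without dbdb replicate 3.

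Set against control, dbR mice still had 4 of the 6 tested genes called lower and 1 called higher, beside 24.1% of all genes called. Among these, 51.1% were higher, or 70.5% when scaled without mitochondrial genes and 62.3% when scaled to the 75th percentile. This comparison shares its libraries with the other 2, so the values are given side by side and not as further evidence. Against control, Ugt2b37 in dbR mice had a log2 fold change of -2.26 (adjusted p = 4.09e-06) and Ugt2b38 one of -1.87 (adjusted p = 1.65e-05). It was -0.63 for Ugt3a1 (adjusted p = 0.000882), -0.54 for Ugt3a2 (adjusted p = 0.00191) and 0.85 for Ugt2b34 (adjusted p = 0.000512). Libraries of these 5 genes and of Ugt2b5 did not overlap between dbR and control, 5 genes being lower and 1 higher, where 41.9% of all genes did not overlap (21.1% lower, 20.8% higher). For Ugt2b5 it was -0.63 (adjusted p = 0.103), which passed the threshold without dbdb replicate 3 (adjusted p = 0.0407).

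**Figure D3:**
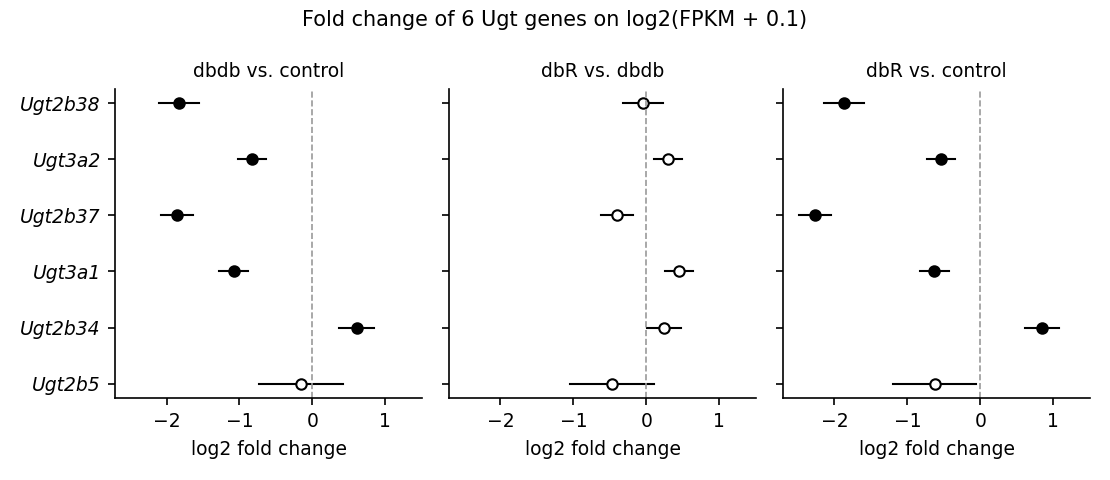
log2 fold change (x axis, on log2 of FPKM + 0.1) of 6 genes in the 3 comparisons, with 95% confidence intervals from limma. Filled points passed an adjusted p under 0.05. The 4 filled points left of zero in dbdb vs. control, between -1.86 and -0.83, were filled and left of zero in dbR vs. control too, the open point of Ugt2b5 was at -0.16 and -0.63, and no point is filled in dbR vs. dbdb.

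The other genes of the UGT superfamily moved in both directions. The counts of this and the following lists in dbdb vs. control stand beside 13.1% of all genes called higher and 13.4% called lower. Of 14 other UGT genes, 11 were tested, and 4 rose and 2 fell, with a median log2 fold change of 0.62 beside 0.00 over all genes. Ugt1a1, the bilirubin-conjugating enzyme in liver, rose from 1.85 ± 0.418 to 20.6 ± 4.83 FPKM (SD, n = 3; adjusted p = 7.55e-06). Ugt1a10 rose from 16.6 ± 3.88 to 42.6 ± 3.39 FPKM, and Ugt1a6a, which conjugates planar phenols, from 7.91 ± 0.190 to 11.7 ± 0.673 FPKM. The largest change of the list was that of Ugt1a2, from 2.18 to 5.73 FPKM in control libraries to 121 to 258 FPKM in dbdb and 218 to 388 FPKM in dbR libraries (log2 fold change in dbdb mice 5.47). Ugt1a genes share their last exons, so reads in these cannot be assigned to 1 of them. Ugt8a, the ceramide galactosyltransferase, fell from 60.4 ± 10.8 to 31.3 ± 2.30 FPKM, and Ugt2a3, which lies between Ugt2b37 and Ugt2b38, from 0.939 ± 0.109 to 0.464 ± 0.171 FPKM. Ugt1a7c, the most abundant of them in control libraries, was at 275 ± 22.7 FPKM in control and 221 ± 27.8 FPKM in dbdb libraries and was not called (adjusted p = 0.0581). The 8 Ugt2b and Ugt3a genes held 86.1% ± 0.737 of the FPKM of all UGT genes in control, 65.4% ± 3.98 in dbdb and 61.5% ± 3.49 in dbR libraries (SD, n = 3).

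Genes that make, move or compete for the sugar donor were described next. Of 14 genes of UDP-sugar supply, 6 fell and 1 rose in dbdb vs. control. Ugdh, which makes UDP-glucuronic acid for the Ugt2b enzymes, fell from 58.7 ± 4.55 to 37.3 ± 4.19 FPKM (log2 fold change -0.66), and Uap1, which makes UDP-N-acetylglucosamine, from 51.8 ± 0.867 to 34.4 ± 2.82 FPKM (-0.59). Slc35d1, a carrier of UDP-glucuronic acid into the endoplasmic reticulum, was the one that rose, from 19.5 ± 0.784 to 26.2 ± 1.92 FPKM (0.42). Of 8 genes for the breakdown of glucuronides and glucuronate, 1 fell, Gusb, the lysosomal β-glucuronidase (log2 fold change -0.49). Of 9 efflux transporters listed, 6 rose and 1 fell. Abcb1a, Abcb1b and Abcc6 are among the 6, and which of the 9 carry conjugates was not tested. Abcc4 had a log2 fold change of 1.40 and Abcc3 of 1.15, and Abcg2 fell by 0.48 on the log2 scale. Of 14 tested sulfotransferases and other conjugating enzymes, 4 rose and 3 fell.

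Androgens are known to set the level of many genes of the mouse proximal tubule, and UGT2B enzymes are known to conjugate them, so 2 further lists are given. All 10 androgen-responsive genes listed fell in dbdb vs. control, with a median log2 fold change of -2.58. Slc7a13 and Slc22a7 of this list are also among the markers of the straight proximal tubule given further on, so the lists are not independent. Kap, the kidney androgen-regulated protein, fell by 2.88 on the log2 scale and Cyp4b1 fell by 1.84. Ugt2b37 and Ugt2b38, at -1.86 and -1.83, were within the range of this list, and Ugt3a1 and Ugt3a2, at -1.08 and -0.83, were above its upper end (Cyp2e1, -1.09). The lists were written with earlier results of these data known. Of 12 steroid-metabolising enzymes, 6 fell and 2 rose. Hsd17b11 fell by 1.94 on the log2 scale, and Hsd11b2, which inactivates corticosterone in distal segments, rose (1.02).

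Transcription factors known to act on Ugt genes changed in both directions, with 4 of 17 tested higher and 3 lower in dbdb vs. control, beside 26.4% of all genes called. Hnf4a, a nuclear receptor of liver and kidney epithelium, was at 239 ± 13.3 FPKM in control and 222 ± 10.4 FPKM in dbdb libraries (SD, n = 3) and was not called (adjusted p = 0.307). Ppara, the fatty acid-sensing receptor, rose (log2 fold change 0.78), as did Nr1i2, the xenobiotic receptor PXR (0.65), Rxra (0.35) and Arnt (0.28). Esr1 (-0.56), Nr3c1, the glucocorticoid receptor (-0.39), and Nr1h3 (-0.33) fell.

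**Figure D4:**
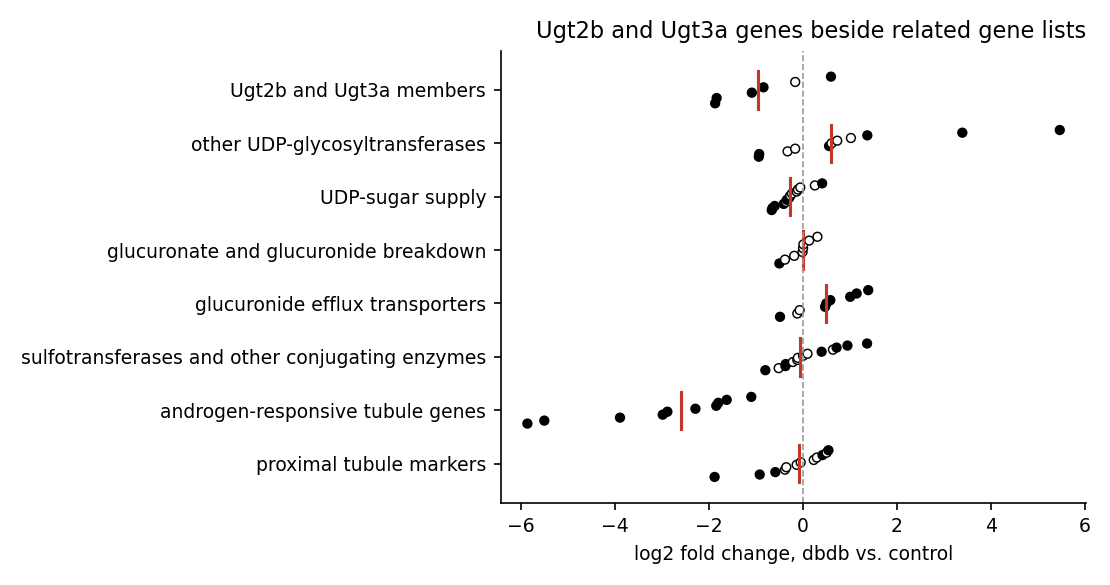
log2 fold change in dbdb vs. control (x axis) of each tested gene in 8 lists, filled where the adjusted p was under 0.05, with the median of each list as a vertical line. The Ugt2b and Ugt3a genes had a median of -0.96 with 1 gene, Ugt2b34, above zero, the other UDP-glycosyltransferases a median of 0.62, and the androgen-responsive genes a median of -2.58 with all 10 below zero. The general proximal tubule markers had a median of -0.08. Markers of the straight proximal tubule are not in the figure, and their median was -1.87.

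Markers of tubule segments differed in direction, with those of the straight proximal tubule mostly lower and those of distal segments mostly higher. The summed FPKM of 9 markers of the straight proximal tubule (S3) reached 3177 to 4199 in control libraries, 1491 to 1621 in dbdb libraries and 1637 to 1870 in dbR libraries, with 7 of the 9 genes lower and 1 higher in dbdb vs. control and none at 0. The S3 markers had a median log2 fold change of -1.87 in dbdb vs. control, beside -1.86 for Ugt2b37 and -1.83 for Ugt2b38. Of 12 general proximal tubule markers, 3 fell and 2 rose, with a summed level of 6321 to 6808, 4734 to 5814 and 5777 to 6017 FPKM. Acy3 is in both proximal tubule lists, and Miox is also in the list for glucuronide and glucuronate breakdown. These lists are therefore not independent. The 12 markers of thick limb, distal tubule and collecting duct summed to 653 to 762 FPKM in control, 961 to 1285 in dbdb and 1020 to 1105 in dbR libraries, and 10 of them rose. Of 11 glomerular and vascular markers 3 fell and 2 rose (summed FPKM 191 to 207, 182 to 198 and 199 to 232). Of 9 immune markers 5 fell and 1 rose, and their summed level was 138 to 232, 77.0 to 900 and 97.7 to 180 FPKM. The highest of these sums was that of dbdb replicate 3, in which Cd74, an antigen presentation gene, was at 872 FPKM, against 57.6 and 77.7 FPKM in the other dbdb libraries, and without that replicate the 5 calls on members in dbdb vs. control were kept. Of 7 tested hepatocyte markers 3 rose, and of 4 tested adipocyte markers 2 fell. The part of cell composition in the Ugt2b and Ugt3a levels was not tested.

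Genes near the members were read for a change shared by the whole region. Within 250 kb of a member, 19 other protein-coding genes were annotated, of which 11 were tested, and in dbdb vs. control 2 rose and 2 fell, Ugt2a3 among the latter, beside 13.1% and 13.4% of all genes. Sult1b1 and Sult1d1, sulfotransferases beyond the Ugt2b38 end of the cluster, rose, opposite to Ugt2b38, Sult1b1 by 0.72 on the log2 scale (adjusted p = 0.0397) and Sult1d1 by 0.41 (adjusted p = 0.0409). Beside the Ugt3a pair, Lmbrd2 fell by 0.38 on the log2 scale (adjusted p = 0.00217). 1 lncRNA assembled by the authors, LNC_000331, lay 85.2 kb from Ugt2b38, on the strand opposite to Sult1b1, and was at 1.80 ± 0.150 FPKM in control, 4.01 ± 0.858 FPKM in dbdb and 2.45 ± 0.776 FPKM in dbR libraries (SD, n = 3).

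Among all tested genes, those whose pattern over the 9 libraries was most like that of a member were ranked by the root mean square difference of centred log2 values. Nearest to Ugt2b38 were Adh1 (0.124), Hsd17b11 (0.133) and Cyp2j13 (0.162), and Ugt2b37 was at 0.260. For Ugt2b37 they were Atp11a (0.205), Cndp2 (0.238) and Ntng1 (0.246). The genes nearest to Ugt3a1 were Rdh5 (0.0927), Efr3b (0.113) and Pecr (0.121), and to Ugt3a2 Ccser2 (0.0522), Cyb5a (0.0529) and Acat1 (0.0555), with 0.147 between Ugt3a1 and Ugt3a2. Ugt2b34 was nearest to Fancc (0.0828), Zfp385b (0.0899) and Ptgs1 (0.0948). The median over all genes was between 0.398 and 1.01, and a pattern with a smaller change has smaller differences to most genes, so the values compare within 1 member only.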

How the data were processed

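RNA from whole renal cortex was sequenced in 9 mice, 3 per group and 1 library each, and groups were taken from the labels. The authors aligned the paired reads to GRCm38.p2 with TopHat2 (2.0.9), assembled transcripts with Scripture and Cufflinks (2.1.1), and deposited FPKM values per transcript, computed by Cufflinks, for mRNAs and lncRNAs. FPKM values are divided by transcript length and mapped fragments, and reads of near-identical genes are divided between them by an estimate. No counts were used here, so no count test was run, and depth was estimated from the steps between low values.

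FPKM was summed per gene identifier. log2(FPKM + 0.1) of genes with a mean of at least 0.1 FPKM was fitted with limma (3.58.1, R 4.3.3; eBayes with trend) in 1 model of the 3 groups. Tests were two-sided, with Benjamini-Hochberg adjustment over 14537 genes per contrast and calls at an adjusted p under 0.05. The fit was tested on simulated data. Ratios were compared by exact permutation tests with Python 3.11.15 and scipy 1.17.1. Fold changes understate the change of low genes. Alternatives covered pseudocounts, filters, scaling, transcripts, the libraries fitted, the replicate block and each library left out.

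Positions and coding sequences came from GENCODE M21 (GRCm38) and promoters from RefSeq (GRCm38.p6). Ugt3a2 had no promoter entry. Named genes were the members, genes of the lists (those called first), annotated neighbours within 250 kb and the 3 genes most like each called member. The members and gene lists were chosen with earlier results of these data known. Some items of the strain description and of the lists are not reported here.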

Additional observations from a re-analysis of the deposited data

How the results depend on the processing

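The 5 calls among the Ugt2b and Ugt3a genes in dbdb vs. control held in all 19 alternative fits (pseudocounts, filters, scaling, single transcripts, fewer libraries, the replicate block and each library left out); the smallest fall, that of Ugt3a2, was between -0.86 and -0.67 on the log2 scale. The count of genes called in dbR vs. dbdb, 108, was the value that moved most: 31 with no filter, 166 at a mean of at least 1 FPKM, 203 with scaling to the 75th percentile, 234 with quantile normalization, 36 with only the 6 libraries compared, 5 for single transcripts, and 2 to 141 with 1 library left out (36 without dbdb replicate 1, 31 without dbdb replicate 2, 70 without dbR replicate 1, 2 without dbR replicate 2 and 10 without dbR replicate 3). Members called there were 1 in place of 0, Ugt3a1, with the filter at 1 FPKM (adjusted p = 0.0463), scaling to the 75th percentile (0.0353) and quantile normalization (0.0437). Its adjusted p over all alternatives was between 0.0353 and 0.189. The log2 fold change of Ugt2b38 in dbR vs. dbdb turned to 0.072 without dbR replicate 1 (-0.127 to 0.072 with 1 library left out), and that of Ugt2b5 in dbdb vs. control to 0.0043 without control replicate 1 and 0.0095 without dbdb replicate 1 (-0.439 to 0.0095 with 1 library left out), none of them called. Ugt2b5 in dbR vs. control passed the threshold with quantile normalization (adjusted p = 0.0426) and without dbdb replicate 3 (0.0407). The cause of these moves was not tested. Libraries with the same replicate number did not deviate together (correlations of -0.17 to 0.06). The labels do not state whether equal numbers pair mice, and low correlations cannot settle it. With the replicate block, 3345 genes were called in dbdb vs. control, 23 in dbR vs. dbdb and 3030 in dbR vs. control, and no call on a member changed. Depth limits Ugt2b35 and Ugt2b36, which had at most 2.95 estimated fragments in a library, and shared sequence limits Ugt2b5.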
